A study of Mus musculus with 4 samples.

Results

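Neutrophils are short-lived white blood cells whose products are packed in successive granule types while the cell matures in the bone marrow, and 10 genes that mark them were examined here in mouse liver tumors. The genes encode the 2 subunits of calprotectin (S100a8, S100a9), primary granule proteins (Mpo, Elane), secondary granule proteins (Ngp, Camp, Ltf), the chemokine receptor Cxcr2, the surface protein Ly6g and the resistin-like protein Retnlg. Members were all probe sets annotated to exactly 1 of these symbols. That gave 8 probe sets of 8 genes, 1 each, among 18193 genes with such a probe set. Ly6g and Retnlg had none and were not analysed here, so 2 of the 10 genes, among them the gene behind the usual antibody marker of mouse neutrophils, carry no value.

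The p53 on group held 2 tumor samples from mice given Doxycycline for 8 days, and the p53 off group held 2 at 0 days, off the drug. All 4 tumors were HrasV12 driven, carried the tet-off shp53 hairpin against p53 and had been grown from liver progenitor cells (LPCs) transplanted orthotopically. In the p53 on group the drug silences the hairpin and p53 returns; in the p53 off group the hairpin is made. No tumor received the drug without the hairpin, so restored p53, the drug and the elapsed time cannot be told apart, and the gene targeted by the hairpin was not analysed here. The labels name no sorting of cells, so a transcript may come from tumor cells or from host cells, and fewer cells of a type and less RNA per cell cannot be told apart. Each sample was measured on 1 array. The labels do not say whether replicates were separate animals, so the p-values reflect how far apart these samples lie, a spread that may be technical.

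The arrays were alike in overall signal, with median log2 values of 7.39 and 7.39 in p53 on and 7.34 and 7.29 in p53 off. The 3' minus 5' signal of the beta-actin control, a sign of RNA quality, was 0.478 and 0.492 in p53 on and 0.395 and 0.262 in p53 off, so it moved with the groups. Of 9 liver epithelial markers, each read by its brightest probe set, 6 exceeded the background level defined below on all arrays: Krt8, Krt18, Krt19, Epcam, Ttr and Hnf4a. Alb and Apoa1, which mark mature hepatocytes, did so on none. The dimmer probe sets of Ttr and Epcam lay below that level on every array. Of 9 such markers 4 fell and 1 rose in p53 on (median difference -0.577), with Krt18 at -1.61 ± 0.099, Krt8 at -1.36 ± 0.10 and Krt19 at -1.04 ± 0.15 (SE; limma adjusted p = 0.000776, 0.00116 and 0.00677). Epcam rose by 0.52 ± 0.071 (limma adjusted p = 0.00587), and its dimmer probe set was not called (0.16, limma adjusted p = 0.203). The brightest Afp probe set had 8.47 and 5.33 in p53 on and 9.16 and 9.15 in p53 off. The p53 on arrays were thus far apart for Afp, and it did not pass (limma adjusted p = 0.156). With 2 arrays a group, precision is limited by their number.

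Primary granules form first and hold myeloperoxidase and serine proteases that kill ingested microbes. Secondary granules form later and hold antimicrobial proteins such as cathelicidin and lactoferrin. Mature cells keep much S100a8 and S100a9 mRNA and little mRNA of the primary granules, and they follow CXC chemokines through Cxcr2. In tumors these cells are studied both as killers and as helpers of tumor cells.

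The start regions of 3 genes are shown because their probe sets passed the background level on at least 3 of the 4 arrays. Each run is 300 bases, spanning the RefSeq gene start, 5′ to 3′ on the gene's strand, build GRCm38.p6. Capitals mark 3 motifs searched on both strands: the TATA box TATAAA, the PU.1 core GAGGAA and the C/EBP site TTNNGNAA. S100a8 lies at chr3:90668821-90669120 on the plus strand, S100a9 at chr3:90695672-90695971 on the minus strand and Ngp at chr9:110419558-110419857 on the plus strand.
S100a8: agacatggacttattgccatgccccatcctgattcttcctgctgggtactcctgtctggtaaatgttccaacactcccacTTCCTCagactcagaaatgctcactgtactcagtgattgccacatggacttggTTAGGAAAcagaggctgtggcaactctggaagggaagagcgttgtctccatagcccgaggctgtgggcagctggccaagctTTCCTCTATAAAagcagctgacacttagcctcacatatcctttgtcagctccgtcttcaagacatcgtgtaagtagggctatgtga
S100a9: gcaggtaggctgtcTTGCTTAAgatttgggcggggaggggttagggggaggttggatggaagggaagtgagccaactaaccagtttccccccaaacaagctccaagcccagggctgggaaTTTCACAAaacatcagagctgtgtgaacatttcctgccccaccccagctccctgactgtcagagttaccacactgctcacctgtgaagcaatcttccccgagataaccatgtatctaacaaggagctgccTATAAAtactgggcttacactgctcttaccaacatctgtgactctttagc
Ngp: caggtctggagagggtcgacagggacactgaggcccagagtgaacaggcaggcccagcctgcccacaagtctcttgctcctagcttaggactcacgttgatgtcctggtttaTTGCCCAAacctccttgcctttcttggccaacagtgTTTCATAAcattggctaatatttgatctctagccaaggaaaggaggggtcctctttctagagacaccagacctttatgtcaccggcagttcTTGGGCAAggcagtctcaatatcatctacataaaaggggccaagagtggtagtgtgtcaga
The S100a8 window held TATAAA 30 bases before the gene start, right after 1 of its 2 PU.1 cores, and 1 C/EBP match. S100a9 held TATAAA at the annotated start and 2 C/EBP matches but no PU.1 core, and Ngp held 3 C/EBP matches and neither of the other motifs. Among all 32851 RefSeq start windows of this length 13.6% held TATAAA, 28.3% the PU.1 core and 40.7% the C/EBP site, so each match is a description and not a binding site. All 10 genes had a window, and TATAAA was found in those of S100a8, S100a9 and Ly6g.

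S100a8 and S100a9 form calprotectin, a calcium- and zinc-binding complex that makes up much of the neutrophil cytosol and is also made by monocytes and stressed squamous epithelium. Their genes are neighbors on chromosome 3, S100a8 at chr3:90669071-90670034 and S100a9 at chr3:90692630-90695721 (RefSeq gene spans, GRCm38.p6, here and below; where in a gene a probe set lies was not given). The S100a8 probe set 1419394_s_at had log2 values of 9.08 and 7.77 in p53 on and 9.44 and 8.20 in p53 off. The S100a9 probe set 1448756_at had 8.27 and 7.39 in p53 on and 8.62 and 7.53 in p53 off. In each group the first-numbered tumor was high and the other low for both genes, and the groups overlapped. The labels do not say that equal numbers mark related samples. For S100a8 the gap between the 2 arrays of a group was 1.32 on the log2 scale in p53 on (2.49-fold) and 1.24 in p53 off (2.36-fold). For S100a9 the gap was 0.88 in p53 on and 1.09 in p53 off. Within-group SDs of this size were rare on these arrays: that of S100a8, 0.905, exceeded those of 99.9% of probe sets and that of S100a9, 0.701, those of 99.8%, against a median of 0.0821 over all probe sets.

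The difference between the groups was smaller than that spread. S100a8 averaged 8.43 ± 0.93 in p53 on and 8.82 ± 0.88 in p53 off (SD, n = 2 each), a difference of -0.40 ± 0.55 (SE; 95% interval -1.77 to 0.97; limma adjusted p = 0.664). S100a9 averaged 7.83 ± 0.62 in p53 on and 8.07 ± 0.77 in p53 off, a difference of -0.24 ± 0.43 (interval -1.31 to 0.82; limma adjusted p = 0.741). As folds of p53 on over p53 off the intervals ran from 0.294 to 1.96 for S100a8 and from 0.404 to 1.77 for S100a9, so both a fall of more than 2-fold and a rise of more than 1.5-fold lie inside them. Single arrays set the sign. Without p53 off replicate 1 the differences were 0.22 for S100a8 and 0.30 for S100a9, and without p53 on replicate 2 they were 0.26 and 0.20; without p53 on replicate 1 they were -1.06 and -0.68, and without p53 off replicate 2 they were -1.02 and -0.79.

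**Figure D1:**
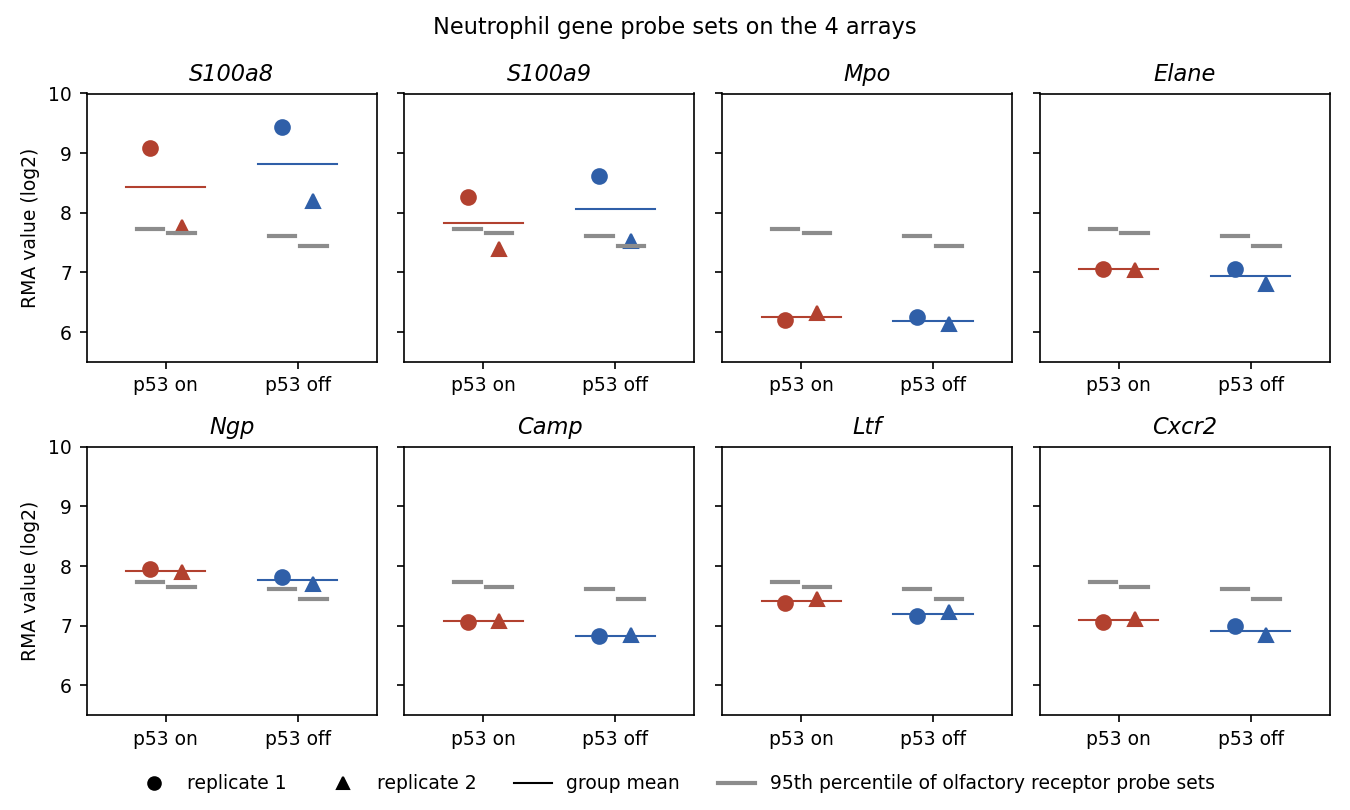
RMA log2 value (y axis) of each of the 8 probe sets on the p53 on arrays (red, left) and p53 off arrays (blue, right), with circles for replicate 1, triangles for replicate 2 and a thin line for the group mean. Grey ticks give the 95th percentile of olfactory receptor probe sets on the same array; S100a8 and S100a9 are spread within each group, while the other 6 probe sets lie between 6.13 and 7.95 with little spread.

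The pattern of S100a8 over the 4 arrays was most like that of its partner. After the mean of each probe set was taken off, the distance between the S100a8 and S100a9 profiles was 0.361 over 4 arrays. Among all single-gene probe sets of other genes the closest were both probe sets of Sfrp1, a secreted Wnt inhibitor, at 0.675 and 0.75, and 1 of Meg3, a long noncoding RNA, at 0.732. Only 3 of 45037 probe sets were at least 1 log2 unit higher on replicate 1 than on replicate 2 in both groups, S100a8 among them; the other two carry no gene name here. A further 2 genes of neutrophil granules and secretions, named after their values were seen, had the same order. Hp, which encodes haptoglobin, had 9.75 and 8.35 in p53 on and 9.05 and 8.44 in p53 off. Wfdc21, which did not exceed the background level defined below on any array, had 7.06 and 6.40 in p53 on and 6.97 and 6.43 in p53 off. Of 55 other neutrophil genes measured, 14 were higher on replicate 1 in both groups, against 19.9% of all genes (3612 of 18193).

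The remaining 6 probe sets lay low on every array. To place them against background, 44 probe sets of olfactory receptor genes, which are made in the nose, served as a guide to signal without transcript; their 95th percentile was 7.73 and 7.66 in p53 on and 7.61 and 7.45 in p53 off. Background differs between probe sets with their sequences, so this level is a guide and no detection call. S100a8 and Ngp exceeded it on all 4 arrays and S100a9 on 3 of them, all but p53 on replicate 2. Mpo, Elane, Camp, Ltf and Cxcr2 exceeded it on no array. At the 99th percentile no probe set of the 8 passed on all arrays.

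Of the primary granule genes, Mpo encodes myeloperoxidase, which makes hypochlorous acid (chr11:87793784-87804412, probe set 1415960_at). It had 6.20 and 6.31 in p53 on and 6.25 and 6.13 in p53 off, overlapping groups with a difference of 0.068 ± 0.085 (limma adjusted p = 0.629). Elane encodes neutrophil elastase, a serine protease that also cleaves matrix proteins (chr10:79886312-79888216, 1422928_at). It had 7.05 and 7.05 in p53 on and 7.06 and 6.81 in p53 off, and p53 off replicate 1 was the highest of the 4. Its difference was 0.11 ± 0.10 (limma adjusted p = 0.484), and without p53 off replicate 2 it was -0.00885.

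All 3 secondary granule genes lie on chromosome 9 and had both p53 on values above both p53 off values: Camp at chr9:109847377-109849456 (1419691_at), Ltf at chr9:111019292-111042766 (1450009_at) and Ngp at chr9:110419808-110423012 (1418722_at). Camp, which encodes the mouse cathelicidin, an antimicrobial peptide precursor, had 7.07 and 7.08 in p53 on and 6.82 and 6.84 in p53 off. Its difference of 0.24 ± 0.069 (1.18-fold; 95% interval 0.068 to 0.41; limma adjusted p = 0.0607) had the smallest adjusted p of the 8. Ltf, which encodes the iron-binding protein lactoferrin, had 7.38 and 7.45 in p53 on and 7.17 and 7.23 in p53 off. These differed by 0.21 ± 0.075 (1.16-fold; interval 0.024 to 0.40; limma adjusted p = 0.105). Ngp, the neutrophilic granule protein and a relative of the cathelicidins, had 7.95 and 7.89 in p53 on and 7.82 and 7.70 in p53 off. Its difference was 0.16 ± 0.079 (interval -0.035 to 0.36; limma adjusted p = 0.21). Cxcr2, the receptor through which neutrophils follow CXC chemokines (chr1:74153994-74161246, 1421734_at), had 7.07 and 7.12 in p53 on and 6.99 and 6.84 in p53 off. Here too the groups did not overlap, and the difference was 0.18 ± 0.083 (interval -0.030 to 0.39; limma adjusted p = 0.195).

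With limma, 0 of the 8 probe sets passed an adjusted p of 0.05 in either direction, against 11.3% of all 45037 probe sets higher and 11.5% lower in p53 on. At an unadjusted p under 0.05 there were 2, Camp and Ltf. Both p53 on values exceeded both p53 off values in 4 of the 8, Ngp, Camp, Ltf and Cxcr2, against 36.1% of all probe sets. The median difference of the 8 was 0.138 and that of all probe sets 0.0269. The olfactory receptor probe sets, in the same dim range, moved by similar amounts: their median difference was 0.12, 39 of 44 were above 0, and both p53 on values exceeded both p53 off values in 26. Of these 44 probe sets 6 had a difference above that of Camp and 9 above that of Ltf, and limma called 2 higher and 1 lower. The part of such a shift in the small differences of Camp, Ltf, Ngp and Cxcr2 was not tested. Between 2 and 2 arrays an exact permutation test cannot give a two-sided p below 0.333, so none was run.

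Whether the secondary granule genes passed depended on the scaling. With spike-in controls of the hybridization as the scale, an alternative added after the data were seen, the median of all probe sets moved to 0.152. Camp was then at 0.37 (limma adjusted p = 0.0171), Ltf at 0.34 (0.0274) and Ngp at 0.29 (0.0498), and all 3 passed. On the same scale 10189 of all 45037 probe sets were called higher, against 5076 on the deposited values. Relative to the median of 0.152 the differences of Camp, Ltf and Ngp were 0.21, 0.19 and 0.14. These equal those on the deposited scale by construction, since the scaling shifts all probe sets of an array by the same amount. Camp also passed when the probe sets of each gene were averaged before the fit (limma adjusted p = 0.0373), with the same difference, as it has 1 probe set, and an SE of 0.061; with 1 probe set per gene it did not pass (0.0554). Among 13 alternatives Camp had adjusted p-values from 0.0171 to 0.227, Ltf from 0.0274 to 0.324, Ngp from 0.0498 to 0.631 and Cxcr2 from 0.0526 to 0.626.

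**Figure D2:**
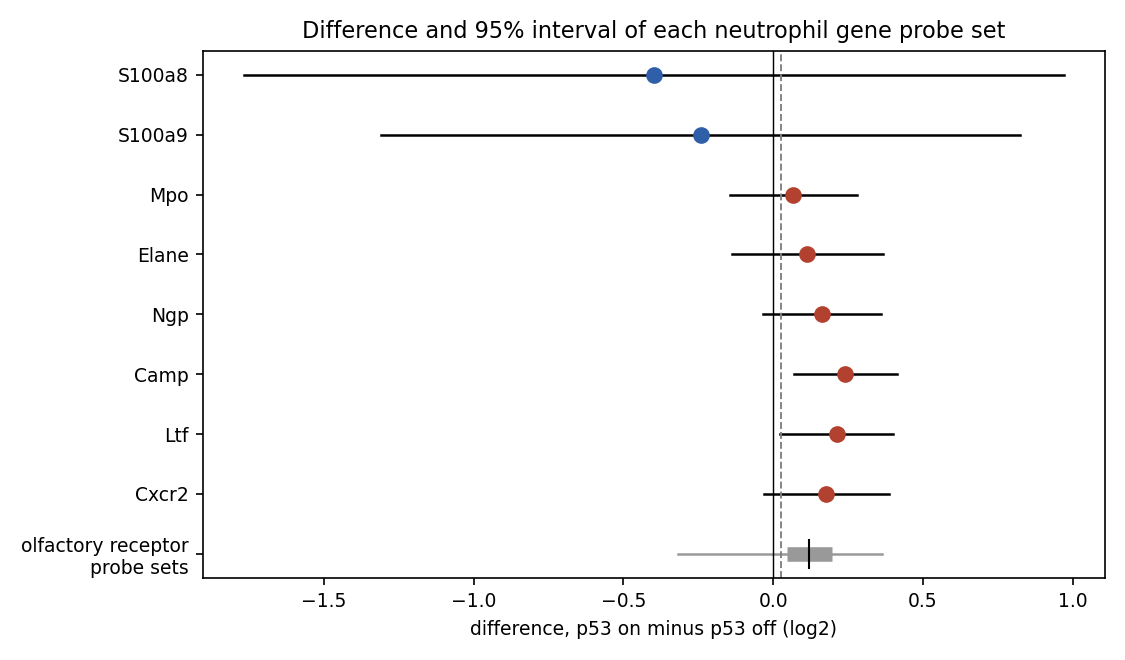
Difference of p53 on minus p53 off (x axis, log2) of each probe set with its 95% interval from limma, red where positive and blue where negative; the dashed line is the median of all probe sets, 0.0269. The bottom row shows the range (thin), the interquartile range (thick) and the median (tick, 0.12) of 44 olfactory receptor probe sets, which cover the values of the 6 low neutrophil probe sets.

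Other genes of the neutrophil were given by their brightest single-gene probe set. Of 64 genes in 6 lists 55 were measured, of which 17 were higher and 4 lower in p53 on, against 13.5% of all genes higher and 14.2% lower. The median difference of the 55 was 0.163, and that of all genes 0.0228. Without p53 off replicate 2 the counts were 7 higher and 2 lower. Higher in p53 on were 7 of 18 receptor genes, 4 of 5 oxidase genes, 1 of 4 primary granule genes, 2 of 12 secondary and tertiary granule genes, 0 of 9 cytosolic genes and 3 of 7 transcription factors. These lists were not tested against each other.

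Granule genes beyond the members were mostly at background or did not pass. Cst7, which encodes cystatin F, an inhibitor of granule proteases that lymphocytes also make, had 7.17 and 7.21 in p53 on and 6.47 and 6.52 in p53 off (0.69 ± 0.072, limma adjusted p = 0.0027). Pglyrp1, a peptidoglycan recognition protein of the secondary granule, rose by 0.33 ± 0.080 (limma adjusted p = 0.0362), and Itgb2l, an integrin beta-2-like gene, by 0.36 ± 0.084 (limma adjusted p = 0.0323). All 3 were below the olfactory level on every array. The calls of Pglyrp1 and Itgb2l were lost without either p53 off array and without p53 on replicate 1 (adjusted p from 0.0696 to 0.203), that of Pglyrp1 also without p53 on replicate 2 (0.0889), and both after median centring (0.0629 and 0.0618), and that of Itgb2l after quantile normalization (0.0675). Averaged over its 3 probe sets Itgb2l was at 0.14 and not called (0.169). Lcn2, the siderophore-binding lipocalin of the secondary granule, had 5.56 and 5.30 in p53 on and 5.62 and 5.36 in p53 off, with a difference of -0.059 ± 0.13 (limma adjusted p = 0.795). Mmp9, a gelatinase that macrophages and tumor cells also make, was bright, with 12.92 and 13.08 in p53 on and 13.05 and 12.92 in p53 off, and did not pass (0.014 ± 0.092; limma adjusted p = 0.939). Ctsg, which encodes the primary granule protease cathepsin G, had 6.65 and 7.71 in p53 on and 6.87 and 6.77 in p53 off, so 1 array stood apart. Its difference was 0.36 ± 0.33 (limma adjusted p = 0.493), and without p53 on replicate 1 it was 0.89 (0.00279).

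In the cytosolic and cystatin-like list 2 of 9 genes fell, and neither is a neutrophil product alone. Ptgs2, which encodes the inducible cyclooxygenase of many cell types, had 9.60 and 9.33 in p53 on and 12.41 and 12.35 in p53 off, a difference of -2.92 ± 0.11 (SE; 7.54-fold lower; limma adjusted p = 0.000407). Il1r2, the decoy receptor for interleukin 1, had 8.71 and 9.05 in p53 on and 9.50 and 9.50 in p53 off (-0.62 ± 0.12, limma adjusted p = 0.0196). The Il1r2 call was lost without either p53 off array (adjusted p = 0.0881 and 0.113). The neutrophil-type genes Stfa2l1, Stfa3, Wfdc21 and Padi4 did not exceed the olfactory level on any array. Mcemp1 of the same list exceeded it on all 4, with 8.77 and 8.88 in p53 on and 8.91 and 8.81 in p53 off, and Hdc on 2. Neither passed by its brightest probe set (limma adjusted p = 0.801 and 0.179). Hdc passed as higher with the mean of its probe sets (0.33, limma adjusted p = 0.0157) and with spike-in scaling (0.0444).

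Among receptors, Csf3r, the receptor for the growth factor G-CSF, had 8.50 and 8.63 in p53 on and 8.18 and 8.20 in p53 off, a rise of 0.38 ± 0.080 (1.30-fold; limma adjusted p = 0.0245). Its call was lost without either p53 off array (adjusted p = 0.111 and 0.127) and without p53 on replicate 2 (0.0727). Cxcr4, which holds neutrophils in the bone marrow and is widely made by leukocytes and endothelium, had 9.12 and 9.60 in p53 on and 7.96 and 7.75 in p53 off (1.51 ± 0.17, limma adjusted p = 0.00371). Tlr2, a receptor for bacterial lipoproteins that lay below the olfactory level on both p53 off arrays, rose by 0.82 ± 0.084 (limma adjusted p = 0.00269) and Tlr4, the endotoxin receptor, by 0.70 ± 0.19 (0.0495). The complement C5a receptor gene C5ar1 rose by 0.57 ± 0.089, the Fc receptor gene Fcgr3 by 0.49 ± 0.073 and Selplg, the selectin ligand, by 0.45 ± 0.072. Il1rn, which encodes a secreted antagonist and not a receptor, fell by 0.47 (SE 0.105). Without p53 off replicate 2 the calls of Tlr4 (0.46; adjusted p = 0.195), C5ar1 (0.0634), Fcgr3 (0.0678), Selplg (0.0782) and Il1rn (0.148) were lost. Those of Tlr4 (0.116) and Il1rn (0.0741) were also lost without p53 on replicate 1, that of Tlr4 after quantile normalization (0.0502) and with array weights (0.0515), and that of Selplg (0.0529) without p53 off replicate 1. Averaged over its probe sets Tlr4 was at 0.28 (0.0794), C5ar1 at 0.44 (0.055) and Il1rn at -0.30 (0.0414). Fpr2, a formyl peptide receptor, did not pass, at 0.33 ± 0.090 (limma adjusted p = 0.0549). It passed in 5 of the alternatives, the lowest adjusted p being 0.0181 with spike-in scaling. The formyl peptide receptor gene Fpr1 was not analysed here.

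The phagocyte oxidase, which makes superoxide in neutrophils and macrophages alike, was higher in 4 of 5 genes, and Cyba did not pass. Cybb, its membrane subunit, had 10.53 and 10.42 in p53 on and 9.19 and 9.13 in p53 off (1.31 ± 0.079, limma adjusted p = 0.000756). Rac2, its small GTPase, rose by 0.58 ± 0.086, the cytosolic subunit gene Ncf4 by 0.53 ± 0.079 and Ncf1 by 0.52 ± 0.12. The Ncf1 call was lost without p53 off replicate 1 (adjusted p = 0.134), p53 off replicate 2 (0.0916) or p53 on replicate 1 (0.061), and that of Ncf4 without p53 off replicate 2 (0.0689). Of 7 transcription factors of granulocyte development 3 rose: Cebpd by 1.65 ± 0.073 (1.03 with the mean of its probe sets), Cebpa by 0.87 ± 0.072 and Spi1, which encodes PU.1, by 0.47 ± 0.076 (adjusted p = 0.0812 without p53 off replicate 2). Klf5, a factor also made by epithelium, changed by -1.13 ± 0.076 (-0.51 with the mean of its probe sets). Runx1 of the same list did not pass by its brightest probe set (-0.40 ± 0.12, limma adjusted p = 0.0695). It passed as lower with the mean of its probe sets (-0.41, limma adjusted p = 0.00821) and after median centring (-0.47, limma adjusted p = 0.0371). Gfi1, which is needed for neutrophil formation, was at background on all arrays, and Cebpe was not analysed here.

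Markers of other leukocytes moved in the same samples. Of 7 pan-leukocyte markers 6 were higher (median difference 0.706), of 13 macrophage markers 8 were higher and 0 lower (median 0.785), and of 7 monocyte markers 3 were higher (median 0.793). The mean log2 value of the macrophage list was 10.39 and 10.17 in p53 on and 9.66 and 9.68 in p53 off, and that of the monocyte list 10.46 and 10.49 in p53 on and 9.99 and 9.73 in p53 off. In the macrophage list Adgre1, a macrophage surface receptor gene, rose by 1.17 ± 0.091 and Csf1r, the receptor for M-CSF, by 1.16 ± 0.10, while Marco and Clec4f were at background. The monocyte receptor gene Ccr2 rose by 1.10 ± 0.19 (adjusted p = 0.052 and 0.0856 without p53 off replicates 1 and 2). The mean of the liver epithelial list was 9.70 and 9.27 in p53 on and 10.13 and 10.20 in p53 off. The part of macrophages, monocytes and fewer epithelial transcripts in the rise of the receptor and oxidase genes was not tested. Red cell and platelet markers, a sign of blood left in the tissue, were called in 0 of 9 genes by limma, with 0 at an unadjusted p under 0.05, 5 at or below background and a mean log2 value of 7.54 and 7.62 in p53 on and 7.55 and 7.45 in p53 off. Itga2b, the platelet integrin alpha chain, had the smallest p of that list. Dendritic cell markers were higher in 4 of 7 genes (median 0.324, 4 at or below background) and lymphocyte markers in 2 of 10 (median 0.057, 8 at or below background). The largest rise of the dendritic list was in Zbtb46, 2.75 ± 0.087 (limma adjusted p = 0.000375; 1.30 with the mean of its probe sets). That of the lymphocyte list was in the granzyme gene Gzma, with 10.58 and 12.05 in p53 on and 9.06 and 8.45 in p53 off. Its difference was 2.555 ± 0.48 (limma adjusted p = 0.017), and it did not pass with trend and robust eBayes (0.0641). Squamous epithelial markers, which mark another source of S100a8 and S100a9, had 1 of 11 higher (the keratin gene Krt6b) and 1 lower (the involucrin gene Ivl), the call of Krt6b being lost without p53 off replicate 2 (adjusted p = 0.0704) and that of Ivl without either p53 off array (0.0566 and 0.0792), with Krt14, Krt16 and Trp63 at background. Of the 11 genes 6 exceeded the background level on all arrays, among them Sprr1a, which averaged 12.8 in p53 on and 12.98 in p53 off. The mean of that list was 8.10 and 8.02 in p53 on and 8.07 and 8.04 in p53 off. In 4 of the 11 genes replicate 1 was higher in both groups, against 19.9% of all genes. Krt13, named after its values were seen, has 3 probe sets. The brightest had 7.88 and 6.95 in p53 on and 7.16 and 6.97 in p53 off. A dimmer one had 5.15 and 5.13 in p53 on and 5.32 and 5.49 in p53 off. Another had 5.64 and 5.56 in p53 on and 5.60 and 5.80 in p53 off. In both dimmer probe sets replicate 1 was the lower one in p53 off. The part of squamous cells in the values of S100a8 and S100a9 was not tested.

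**Figure D3:**
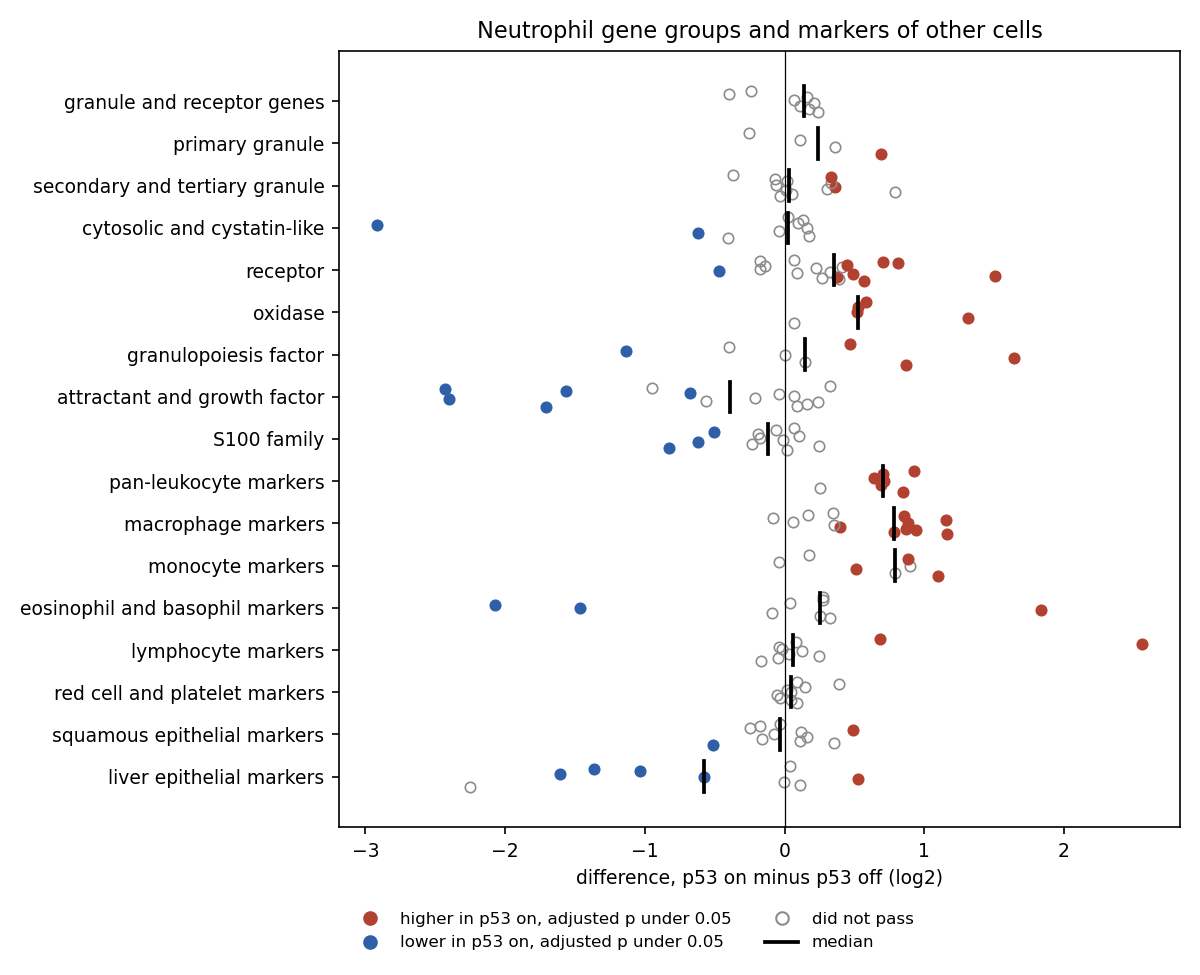
Difference of p53 on minus p53 off (x axis, log2) for each gene of a list by its brightest probe set; filled points passed a limma adjusted p of 0.05 (red higher, blue lower in p53 on), open points did not, and black bars are list medians. None of the 8 granule and receptor genes in the top row is filled, while pan-leukocyte and macrophage markers have medians of 0.706 and 0.785.

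Of 14 genes for Cxcr2 ligands and for cytokines that act on neutrophil output 5 fell and 0 rose (median -0.389), and 1 of the 5, Cxcl3, encodes a Cxcr2 ligand. On both p53 on arrays Cxcl3, Il6 and Il1a lay below the olfactory level, so their differences are taken from a level not above that guide. Cxcl3 had 6.04 and 6.08 in p53 on and 9.33 and 7.60 in p53 off. The p53 off arrays were far apart, and the difference was -2.40 ± 0.53 (limma adjusted p = 0.0267; 0.111 with trend and robust eBayes; difference -1.54 without p53 off replicate 1). Csf2, which encodes GM-CSF, had 7.79 and 7.81 in p53 on and 9.61 and 9.40 in p53 off (-1.71 ± 0.093, limma adjusted p = 0.000612). Il1b changed by -1.56 ± 0.091, Il6 by -2.43 ± 0.27 and Il1a by -0.68 ± 0.15, the last not called without p53 off replicate 2 (adjusted p = 0.121) or p53 on replicate 1 (0.0606). The other Cxcr2 ligands did not pass. Cxcl1 had 9.83 and 9.87 in p53 on and 9.79 and 9.59 in p53 off, and Cxcl2 had 7.12 and 7.36 in p53 on and 8.28 and 7.33 in p53 off. Cxcl5 had 5.81 and 6.07 in p53 on and 6.48 and 5.83 in p53 off, and Ppbp had 6.22 and 6.29 in p53 on and 7.87 and 6.54 in p53 off. Of the 4 arrays p53 off replicate 1 held the highest value for Cxcl2, Cxcl3, Cxcl5 and Ppbp, and p53 on replicate 2 for Cxcl1 and Cxcl15. How many of all probe sets were highest on p53 off replicate 1 was not counted, and a link with S100a8 was not tested. Without p53 off replicate 2 the differences of Cxcl2 (-1.04; adjusted p = 0.0255) and Ppbp (-1.62; 0.00961) passed. Csf3, which encodes G-CSF, did not pass. Tnf, an inflammatory cytokine named after its values were seen, was at 0.33 ± 0.089 (limma adjusted p = 0.0521) and below the olfactory level on all arrays. It passed as higher in 6 of the 13 alternatives (adjusted p from 0.0171 to 0.0496).

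**Figure D4:**
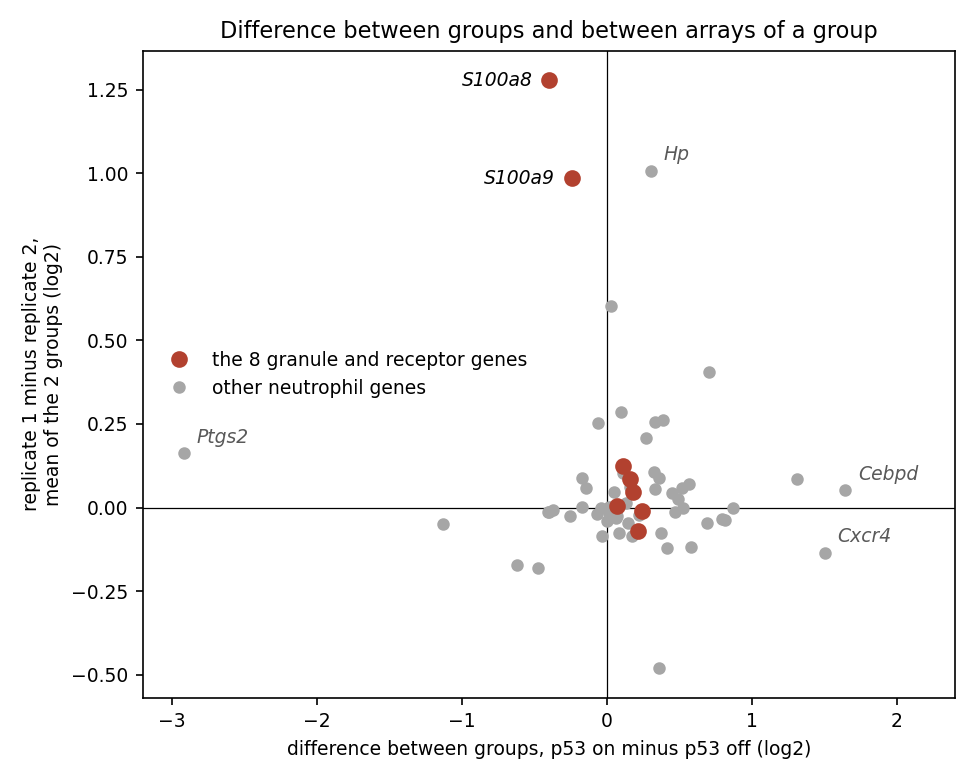
Each gene by its difference between groups, p53 on minus p53 off (x axis, log2), and by replicate 1 minus replicate 2 averaged over the groups (y axis, log2), for the 8 granule and receptor genes (red) and 55 other neutrophil genes (grey). S100a8, S100a9 and Hp stand out upwards, Ptgs2, Cxcr4 and Cebpd sideways, and the other 6 genes lie near the origin.

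Relatives of the members were read for comparison. Of 12 other genes listed with the S100 family, which include the gene of an S100-binding protein, 3 fell and 0 rose. S100a10, which partners annexin A2, fell by 0.83 (SE 0.0801) and S100a16 by 0.62 (SE 0.0716). S100b, which was below the olfactory level on all arrays, fell by 0.51 (SE 0.0895). The S100b call was lost without p53 off replicate 1 (difference -0.41). Of 6 other Ly6 family genes Ly6e rose, by 1.12 ± 0.15 (limma adjusted p = 0.00579), and 5 did not pass. Of 3 resistin family genes Retnlb rose by 0.34 ± 0.073 (limma adjusted p = 0.0243) but was below the olfactory level on all arrays, and its call was lost without either p53 off array (0.0935 and 0.147), without p53 on replicate 1 (0.0779) and after median centring (0.0534). Retnla, a product of alternatively activated macrophages, had 10.25 and 8.42 in p53 on and 8.37 and 8.25 in p53 off, so the difference of 1.03 ± 0.56 (limma adjusted p = 0.256) rested on 1 array, and without p53 on replicate 2 it was 1.94 (0.000404).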

How the data were processed

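Total RNA of 4 mouse liver tumor samples was amplified and biotin-labelled, per the labels' protocols, and read on Affymetrix mouse arrays. Each array has 1 deposited log2 value per probe set. The submitters' processing notes name RMA, a method that corrects background, equalises the arrays' distributions and combines the probes of a set, and limma 3.14.4, with no order. The genome build is not given in the sources used here. Values of dim probe sets are compressed, and no detection calls come with them.

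Of 45101 rows 64 control probe sets were left out. The other 45037 were fitted with lmFit and eBayes (limma 3.58.1, R 4.3.3), with p53 on over p53 off, no block and no filter, with Benjamini-Hochberg adjustment over all of them. Differences are given with the SE of that fit, and its 95% intervals have 5.53 moderated degrees of freedom. Genes outside the members were read by the brightest of their single-gene probe sets in the same fit. Symbols came from the platform annotation, and all 286 probe sets of listed genes matched a RefSeq gene by ID, 0 of them under another symbol. Start windows and motif searches used RefSeq, GRCm38.p6. The code was tested on simulated data. Figures were drawn with matplotlib 3.10.9.

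The members and gene lists were chosen with earlier results of these data known. Named were all members, up to 6 called genes of each other list with the largest change (3 for markers), and Csf3r, Fpr1, Lcn2, Cxcl1, Cxcl2, Cxcl3 and Cxcl5. Selplg, Fpr2, Mmp9, Ctsg, Hp, Wfdc21, Ppbp, Csf3 and Tnf were named after their values were seen. So were Krt13, Cyba, Retnla, Hnf4a, Ttr, Epcam, Afp, Runx1, Sprr1a, Mcemp1, Hdc and genes at background. Alternatives were a replicate block, quantile normalization, median centring, leaving out the lowest 40% of mean values, 1 probe set or the mean of all probe sets per gene, trend and robust eBayes, array weights, and each array left out in turn, where the lone array is assumed to vary like the other group. Scaling to 9 spike-in probe sets was added after seeing the data.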

Additional observations from a re-analysis of the deposited data

How the results depend on the processing

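Of the 8 probe sets 0 were called. This count became 3 higher with spike-in scaling, 1 higher with probe sets averaged per gene and 1 lower with the replicate block, and stayed 0 in both directions in the other 10 alternatives. The replicate numbers are not said to pair the samples, and the correlation of replicate 1 minus replicate 2 between the groups was -0.0825 over all probe sets; with the replicate block S100a8 was called at -0.40 (limma adjusted p = 0.0395), and the counts over all probe sets were 3933 higher and 4283 lower, against 5076 and 5196. Of the genes named, Pglyrp1 (0.0713), Itgb2l (0.0563), Ncf1 (0.0674), Retnlb (0.0522) and Fcer1a (0.0586) were not called with the block (adjusted p). The sign turned for S100a8 (-1.06 to 0.26) and S100a9 (-0.79 to 0.30) when single arrays were left out, for Elane likewise (-0.00885 to 0.24), and for Mpo with median centring (-0.0072). Leaving out single arrays gave 1938 to 4644 probe sets higher and 2110 to 4916 lower, 7 to 16 other neutrophil genes higher and 2 to 4 lower, and 0 of the 8 in either direction. Without p53 off replicate 1 there were 3037 higher and 3213 lower, and without p53 off replicate 2 there were 1938 and 2110. With 1 probe set per gene 2550 genes were higher and 2673 lower, with probe sets averaged per gene 2463 and 2548, as fewer features were tested. Spike-in scaling gave 10189 higher. Of all calls 72.5% were higher with it, 49.4% on the deposited values and 37.7% with median centring. At the 99th percentile of olfactory receptor probe sets 0 of the 8 exceeded background on all arrays, against 2 at the 95th. Dim signal limits 5 of the 8, which exceeded that level on no array.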

Other observations

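Markers of the other granulocytes were called in both directions. Of 9 measured eosinophil and basophil markers 2 fell and 1 rose in p53 on, against 14.2% of all genes lower and 13.5% higher. Mcpt8, a basophil protease gene, had 7.48 and 8.00 in p53 on and 9.84 and 9.79 in p53 off, a difference of -2.07 ± 0.17 (limma adjusted p = 0.0015). Its value on p53 on replicate 1 lay below the olfactory receptor level. Il5ra, a subunit of the interleukin 5 receptor, had 7.41 and 7.36 in p53 on and 8.69 and 9.01 in p53 off (-1.46 ± 0.12, limma adjusted p = 0.00148), its p53 on values lying below the olfactory receptor level. Fcer1a, a subunit of the high-affinity IgE receptor of mast cells and basophils, had 7.26 and 8.24 in p53 on and 6.28 and 5.55 in p53 off. Its difference was 1.83 ± 0.38 (limma adjusted p = 0.0216), and only p53 on replicate 2 exceeded the olfactory receptor level. The Fcer1a call was lost without p53 off replicate 2 (difference 1.47) and with trend and robust eBayes (limma adjusted p = 0.0524). Siglecf, Prg2, Prg3, Epx, Ccr3 and Cd200r3 did not exceed the olfactory receptor level on any array, so the eosinophil granule genes of the list carried no signal above that guide.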
